A study of Homo sapiens with 32 samples.

Results

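RAB proteins form a large branch of the Ras superfamily of small GTPases. The members described here are the 48 genes whose single symbol in the platform's annotation is RAB followed by a number and at most 1 letter from A to D, out of 14405 transcript clusters with exactly 1 symbol and 21788 clusters in all. A transcript cluster is the set of exon array probes assigned to a gene. RAB36 had more than 1 matching cluster, so 49 clusters matched, and the cluster with the highest mean was kept. A further 15 clusters that list several symbols, a RAB among them, were not used.

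The measurements came from 7 B-lymphoblastoid cell lines of the HapMap collection (GM07019, GM07029, GM10835, GM12812, GM12813, GM12814 and GM12815), which are B cells immortalised in culture and supplied by the Coriell repositories. Each line derives from 1 person, and all cultures were given 200 µM 4-thiouridine (4sU), a uridine analogue that is built into RNA made during the 2 h of labelling, so no unlabelled culture was compared. From each culture, total RNA and the 4sU-labelled, newly made (nascent) RNA were hybridised to separate exon arrays, 16 arrays of each kind. GM07029, GM10835 and GM12813 had 3 independent cultures each, the 4 other lines had 1 culture each, and the arrays of GM12813 were run in technical duplicate, which gave 13 cultures on 32 arrays.

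RAB proteins are switches. In the GTP-bound form they sit on a membrane and recruit effectors such as tethers, motor adaptors and lipid-modifying enzymes, and in the GDP-bound form they are extracted to the cytosol by GDP dissociation inhibitors. Exchange factors load them with GTP, GTPase-activating proteins (largely the TBC domain family) switch them off, and a geranylgeranyl lipid anchors them. In B cells they direct the uptake of antigen bound to the B cell receptor, its passage to the late endosomes where peptides meet HLA class II, and the return of receptors to the surface.

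Of the 48 RAB genes, 37 were above background, defined as a mean log2 intensity over all arrays above 6.40, the 95th percentile of 216 olfactory receptor clusters. By the same rule 65.0% of all clusters were above background. The 11 RAB genes at or under this level were RAB3B, RAB3C, RAB6B, RAB9B, RAB15, RAB25, RAB27B, RAB32, RAB36, RAB42 and RAB44. Members best known from neurons or epithelia fell on both sides of this level. RAB3C of synaptic vesicles and RAB25 of epithelial recycling endosomes were under it. RAB3A of synaptic vesicles, RAB39B, a neuronal member, and RAB17 of epithelial transcytosis were above it. RAB27B, the paralogue of the granule protein RAB27A, had a mean log2 total intensity of 3.92. Levels of different genes are not compared here, because they are read by different probes.

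The B cell label was checked against marker genes. Of the B cell markers 9 of 9 on the array were above background, with a mean level (log2 total intensity over the list) of 9.53 to 10.15 across lines. Of the T and NK cell markers 1 of 9 was above it (NKG7), of the monocyte and granulocyte markers 1 of 7 (ELANE), and of the fibroblast and epithelium markers 4 of 8 (COL1A1, COL1A2, KRT8 and KRT18). The lists' levels were 5.15 to 5.35, 5.15 to 5.42 and 5.88 to 6.08. In a culture measured in bulk, fewer cells of a kind and less RNA per cell cannot be told apart. Array medians were 6.74 to 6.95 in total RNA and 7.58 to 7.92 in nascent RNA. Among RAB genes, technical duplicates differed by a median of 0.0953 to 0.249 in total RNA and 0.0664 to 0.143 in nascent RNA. The median SD between cultures of a line was 0.143 in total RNA, 0.0941 in nascent RNA and 0.15 in their ratio, all on the log2 scale, and the number of arrays limits the precision of each value.

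The study took the ratio of nascent to total RNA of a culture as the basis of mRNA half-life, where a higher ratio stands for faster turnover. The ratio is given here as a log2 difference, centred on the median cluster of each culture, so that 0 is the typical transcript. Before centring, nascent RNA exceeded total RNA by a median of 0.65 to 0.88 in every culture, and every statement of higher or lower is relative to that shift. Relative to the median cluster, 10 of the 37 RAB genes had a higher ratio over the 7 lines, 14 had a lower ratio and 13 did not pass (limma, adjusted p under 0.05 over all clusters). Of the 14 lower ones, 9 turn positive when the ratio is not centred. RAB39A, 1 of the 10 higher ones, met the background rule only through nascent RNA (mean 7.50), as its mean total RNA was 5.98. Its higher ratio is therefore not well determined. Of all clusters tested, 63.5% passed, 31.7% higher and 31.7% lower, so the family as a whole was not far from the background. The median ratio of the RAB genes was -0.04 against -0.01 for all clusters, and 20 of the 37 had the same sign in every line, as did 7092 of the 14167 clusters. At 2-fold or more, RAB14 was the only higher member (9.18% of all clusters) and RAB5B, RAB8B, RAB7A and RAB5C were lower (5.93%). Because the family's counts sit near the background, the account below turns to its single genes and families.

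**Figure D1:**
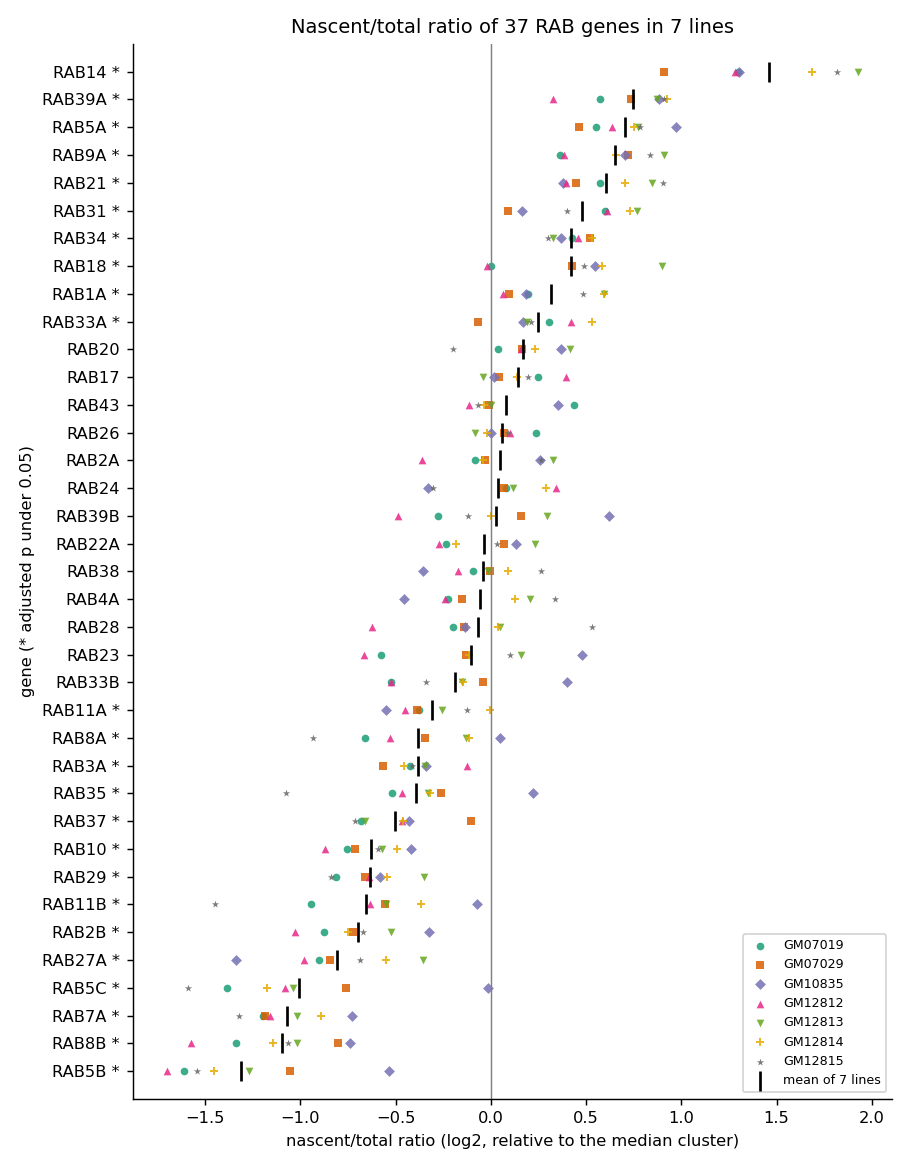
Nascent/total ratio (log2, centred on the median cluster of each culture, horizontal axis) of the 37 RAB genes above background (vertical axis), with 1 symbol per line and a black bar for the mean of 7 lines. RAB14 stands at the top with a mean of 1.46 and RAB5B at the bottom with -1.31. Asterisks mark genes past the threshold, and 9 of the 14 marked genes left of 0 move to the right of it when the ratio is not centred. RAB39A, also marked, had a mean total RNA under background.

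Of the 8 endoplasmic reticulum and Golgi members above background, 4 had a higher ratio, 1 had a lower one and 3 did not pass. Their median was 0.16, and 31.7% of all clusters were higher and 31.7% lower. RAB18, which acts at the endoplasmic reticulum and lipid droplets, ranged from -0.02 in GM12812 through a median of 0.49 to 0.90 in GM12813 (mean 0.42 ± 0.33 SD, n = 7 lines, adjusted p = 0.00647). RAB34, a Golgi protein with a part in macropinocytosis and ciliogenesis, ranged from 0.30 to 0.53 with a median of 0.42 (mean 0.42 ± 0.09 SD, n = 7, limma adjusted p = 0.000311). Its total RNA was under background in GM12812 and GM12815, and with total RNA set at background there its mean ratio was 0.38. RAB1A, which drives transport from the endoplasmic reticulum to the Golgi, was higher by a smaller margin (0.31 ± 0.23 SD, adjusted p = 0.0104 with limma, n = 7). Its 7 values lay in separate groups, between 0.06 and 0.19 in GM07019, GM07029, GM10835 and GM12812 and between 0.48 and 0.59 in the other 3 lines.

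RAB33A and RAB33B, Golgi proteins of which RAB33B also binds the autophagy protein ATG16L1, stood on different sides. RAB33A was higher with a mean of 0.25 ± 0.19 (SD, n = 7, limma adjusted p = 0.0220), a call that is lost without GM07019, GM12812 or GM12814 (0.24, 0.22 and 0.20). RAB33B had a mean of -0.19 ± 0.32 (limma adjusted p = 0.145), and without GM10835, the one line where it was high at 0.40, the mean was -0.29 and passed. RAB2B, of Golgi structure and retrograde transport, was lower relative to the median cluster in every line, from -1.03 through -0.72 to -0.33 (mean -0.70 ± 0.23, limma adjusted p = 3.51e-05, n = 7), although without centring its mean is 0.07. Its close relative RAB2A had a mean of 0.05 ± 0.25, and RAB43, which acts between the endoplasmic reticulum and Golgi, 0.08 ± 0.22, neither past the threshold.

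All 7 members of the early endosome were above background. RAB5A, RAB21 and RAB31 had a higher ratio, RAB5B and RAB5C a lower one, and RAB20 and RAB22A did not pass. The shares over all clusters were 31.7% higher and 31.7% lower. RAB5A, RAB5B and RAB5C encode closely related proteins that all drive the fusion of incoming vesicles with early endosomes. The ratio of RAB5A was lowest in GM07029 at 0.46, had a median of 0.75 and was highest in GM10835 at 0.97 (mean 0.70 ± 0.17 SD, n = 7, limma adjusted p = 2.07e-05). RAB5B went from -1.70 in GM12812 through a median of -1.45 to -0.54 in GM10835 (mean -1.31 ± 0.40, limma adjusted p = 5.84e-06, n = 7). RAB5C went from -1.59 in GM12815 through -1.08 to -0.02 in GM10835 (mean -1.01 ± 0.51, limma adjusted p = 0.000146, n = 7). Without centring the mean of RAB5C was -0.23 and did not pass (limma adjusted p = 0.209). No line overlapped between RAB5A and either relative, and GM10835 was the highest line for all 3.

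RAB21, which carries integrins through endosomes, had a ratio of 0.38 to 0.90 with a median of 0.57 (mean 0.61 ± 0.22, limma adjusted p = 0.000117, n = 7). RAB31, which moves cargo from the trans-Golgi to endosomes, had 0.09 to 0.77 with a median of 0.60 (mean 0.48 ± 0.27, limma adjusted p = 0.00129, n = 7). Both were above 0 in every line, RAB31 barely so in GM07029. RAB22A, the nearest relative of RAB31, lay on both sides of 0, from -0.27 to 0.23, and RAB20, which acts on phagosomes, from -0.20 to 0.42. RAB20 missed the threshold with a mean of 0.17 ± 0.21 (limma adjusted p = 0.109) and passed without GM12815, its lowest line, at 0.23.

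Of the 9 members of recycling and delivery to the plasma membrane, 6 had a lower ratio, 2 did not pass and RAB14 was higher. Of all clusters, 31.7% were lower and 31.7% higher. The median of the group was -0.38. RAB14, which works between the trans-Golgi, early endosomes and recycling endosomes, had 0.91 in GM07029, a median of 1.30 and 1.93 in GM12813 (mean 1.46 ± 0.36, limma adjusted p = 2.38e-06, n = 7). Every line had at least 0.91, and the mean was higher than that of 95.8% of all clusters tested. RAB8B, one of the proteins that carry vesicles to the surface, had -1.58 in GM12812, a median of -1.07 and -0.74 in GM10835 (mean -1.10 ± 0.29, limma adjusted p = 4.07e-06, n = 7). It was lower in all 7 lines, and its mean stayed below 0 and past the threshold without centring, as did those of RAB5B and RAB7A. The means of RAB5C (-0.23) and RAB27A (-0.04) also stayed below 0 without centring but did not pass.

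The recycling endosome proteins RAB11A and RAB11B were both lower relative to the median cluster and spread differently. RAB11B ran from -1.45 in GM12815 through -0.55 to -0.07 in GM10835 (mean -0.65 ± 0.44, limma adjusted p = 0.00132, n = 7), so that a single line held the low end. RAB11A ran from -0.55 in GM10835 through -0.38 to -0.01 in GM12814 (mean -0.31 ± 0.19, limma adjusted p = 0.00624, n = 7). RAB10, of secretory delivery and GLUT4 transport, was lower in every line, from -0.87 through -0.59 to -0.42 (mean -0.63 ± 0.16, limma adjusted p = 2.42e-05, n = 7). RAB35, of fast recycling and actin, and RAB8A, of surface and ciliary delivery, were lower in 6 of 7 lines, with means of -0.39 ± 0.39 (adjusted p = 0.0152, limma, n = 7) and -0.38 ± 0.35 (adjusted p = 0.0121, limma, n = 7). The exception was GM10835 for both, at 0.22 and 0.05, and GM12815 was their lowest line, at -1.08 and -0.93. Without centring the means of RAB10, RAB11A, RAB11B, RAB35 and RAB8A are positive, at 0.14, 0.47, 0.12, 0.38 and 0.39. RAB4A, of fast recycling, and RAB17, of epithelial transcytosis, did not pass, with means of -0.06 ± 0.29 and 0.14 ± 0.15.

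In the late endosome, lysosome and autophagy group 2 of 7 members were higher, 2 lower and 3 did not pass. The higher ones were RAB9A and RAB39A, of which RAB39A had a mean total RNA under background. Among all clusters, 31.7% were higher and 31.7% lower. RAB7A, the main RAB of late endosomes and lysosomes, was lower in all 7 lines, at -1.32 in GM12815, a median of -1.16 and -0.73 in GM10835 (mean -1.07 ± 0.21, limma adjusted p = 1.46e-06, n = 7). RAB9A, which returns mannose 6-phosphate receptors from late endosomes to the Golgi, was higher in all 7, at 0.36 in GM07019, a median of 0.71 and 0.91 in GM12813 (mean 0.65 ± 0.21, limma adjusted p = 6.25e-05, n = 7). These 2 genes of the same compartment did not overlap in any line. RAB29, which recruits the kinase LRRK2 to Golgi and lysosomal membranes, was lower relative to the median cluster, from -0.84 through -0.64 to -0.35 (mean -0.63 ± 0.17, limma adjusted p = 2.67e-05, n = 7), and 0.14 without centring.

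RAB39A, linked to phagosomes and autophagy, had a mean ratio of 0.75 ± 0.22 (n = 7 lines, limma adjusted p = 2.93e-05), between 0.33 and 0.92. Its total RNA was not above background in 5 lines, where the ratio is then not well determined. In the other lines, GM07019 and GM07029, the ratio was 0.57 and 0.74. With total RNA set at the background level in those 5 lines, its ratio was between -0.20 and 0.35 there, with a mean of 0.28 over all 7. RAB24, of autophagy, RAB38, of melanosomes and related organelles, and RAB39B, a neuronal relative of RAB39A, had means of 0.04 ± 0.26, -0.04 ± 0.20 and 0.03 ± 0.37 and did not pass. Their lines fell on both sides of 0.

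Of the granule and regulated secretion group, 4 of the 8 members on the array were above background. Of these, 3 were lower and 1 did not pass, and none was higher, with a median of -0.44. Over all clusters, 31.7% were lower and 31.7% higher. RAB27A, which docks cytotoxic granules and melanosomes and is the gene of Griscelli syndrome with immunodeficiency, had -1.34 in GM10835, a median of -0.85 and -0.36 in GM12813 (mean -0.81 ± 0.32, limma adjusted p = 5.14e-05, n = 7). GM10835, which had the highest ratio of the 7 lines for 13 RAB genes, was the lowest for this one. RAB37, of mast cell and other regulated secretion, had -0.71 to -0.11 with a median of -0.47 (mean -0.50 ± 0.21, limma adjusted p = 0.000314, n = 7). Its highest line, GM07029, is one where neither total nor nascent RNA was above background (5.56 and 6.22). RAB3A, of synaptic vesicles, had -0.56 to -0.13 with a median of -0.42 (mean -0.38 ± 0.14, limma adjusted p = 0.000727, n = 7). Without centring the means were -0.04 for RAB27A, 0.27 for RAB37 and 0.39 for RAB3A. RAB26 (0.06 ± 0.10), and of the remaining group RAB23 (-0.11 ± 0.41), which restrains Hedgehog signalling, and RAB28 (-0.07 ± 0.35), a ciliary protein, did not pass.

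Paralogues of the same number could be set side by side within each culture, where the centring cancels. The differences are described with their spread over lines and without a test. RAB5A exceeded RAB5B by 2.01 ± 0.36 (SD, 7 of 7 lines, 1.51 to 2.33) and RAB5C by 1.71 ± 0.47 (7 of 7 lines, 0.99 to 2.37). RAB5B lay under RAB5C by 0.30 on average, and in 6 of 7 lines. Within the RAB5 family, then, RAB5A stands apart from the other members in every line.

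RAB2A exceeded RAB2B by 0.75 ± 0.12 in 7 of 7 lines, with 0.58 as the smallest and 0.93 as the largest difference, the narrowest spread of the families compared. RAB8A exceeded RAB8B by 0.72 ± 0.33 in 7 of 7 lines, although by no more than 0.13 in GM12815. RAB39A can be set against RAB39B only in GM07019 and GM07029, where its total RNA was above background, and there it had ratios of 0.57 and 0.74 against -0.28 and 0.16. For RAB11 and RAB33 the order depended on the line. RAB11A exceeded RAB11B by 0.35 ± 0.54 and did so in 6 of 7 lines, GM10835 being the other. RAB33A exceeded RAB33B by 0.44 ± 0.44 in 5 of 7 lines. RAB31 exceeded RAB22A in 7 of 7 lines, by 0.51 ± 0.39 on average but by as little as 0.02 in GM07029.

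**Figure D2:**
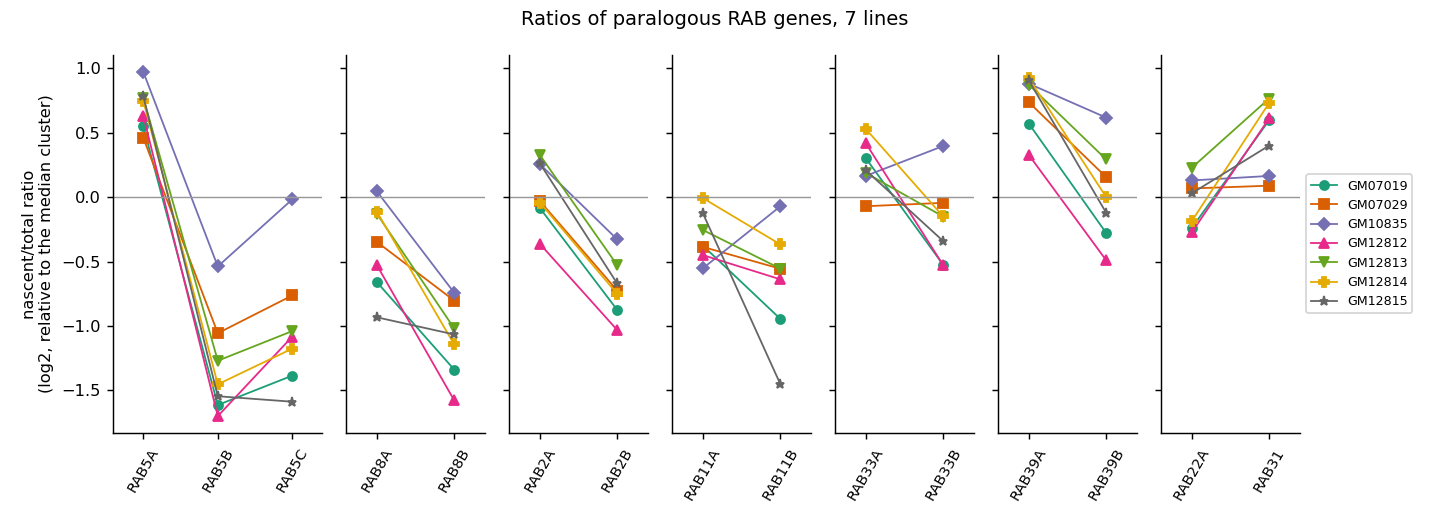
Nascent/total ratio (log2, relative to the median cluster, vertical axis) of paralogous RAB genes, with 1 connected symbol per line. In all 7 lines RAB5A stands above RAB5B and RAB5C, RAB2A above RAB2B and RAB8A above RAB8B, whereas lines cross between RAB11A and RAB11B and between RAB33A and RAB33B, and RAB39A is not above background in total RNA of 5 lines.

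The ratios rest on levels well above background for most of these genes. The log2 total RNA of RAB14 ran from 8.19 in GM12815 through a median of 8.72 to 9.61 in GM07029, and its nascent RNA from 10.66 through 11.05 to 11.33. On the deposited scale, where nascent RNA arrays run higher, its nascent values were thus all above the total ones, and their range over lines was narrower. For RAB5A, total RNA ran from 8.85 through 9.09 to 9.45 and nascent RNA from 10.28 through 10.61 to 10.89, again without overlap. For RAB5B the medians were in the other order and the ranges overlapped, with total RNA from 9.25 through 9.89 to 10.32 and nascent RNA from 8.97 through 9.39 to 9.64.

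For RAB5C the 2 measures overlapped, with total RNA from 10.21 through 10.94 to 11.44 and nascent RNA from 9.90 through 10.72 to 11.03. GM10835 held the low end of its total RNA and the high end of its nascent RNA. RAB7A varied little in total RNA, from 10.83 through 10.98 to 11.23, and more in nascent RNA, from 10.15 in GM12815 through 10.79 to 11.08 in GM10835. RAB9A had total RNA from 8.79 through 9.79 to 10.03 and nascent RNA from 10.27 through 11.33 to 11.44, with GM12815 alone at the low end of both. RAB8B had total RNA from 10.68 in GM10835 through 11.31 to 11.46 and nascent RNA from 10.40 in GM12812 through 10.88 to 11.27. RAB2B and RAB2A had medians of 8.74 and 10.05 in total RNA and of 8.86 and 10.78 in nascent RNA, levels that belong to different probes and are given only to place each gene above background.

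Across genes, the mean ratio of the 37 RAB genes went with their mean total level at r = -0.44 (Spearman -0.42). Over all 14167 clusters tested the same correlation was -0.45 (Spearman -0.42). These are descriptions over genes that share arrays and are not independent. Total RNA enters both quantities, and probe response was not tested. After a smooth curve of ratio against mean signal was subtracted, RAB11A, RAB33A, RAB35 and RAB8A no longer passed (-0.07, 0.14, -0.18 and -0.17), while RAB2A (0.29) and RAB33B (-0.24) did.

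Lines differed in the level of many RAB genes, as the map of deviations shows. Nascent RNA was lowest in GM12815 for 22 of the 37 RAB genes, against 45.1% of all clusters, and highest in GM10835 for 17, against 35.6%. Total RNA was lowest in GM12815 for 19 of 37, against 25.3% of all clusters. GM12815 is a single culture, so that culture and line cannot be told apart. The median RAB gene lay 0.41 under its mean over lines in nascent RNA of GM12815, where the median of all clusters lay 0.22 under it. RAB29 was the RAB gene farthest down in that line, with nascent RNA of 7.45 against a median of 9.17 and total RNA of 7.64 against 8.87. RAB31 went the other way, with its highest total and nascent RNA in GM12815 at 8.87 and 9.92.

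**Figure D3:**
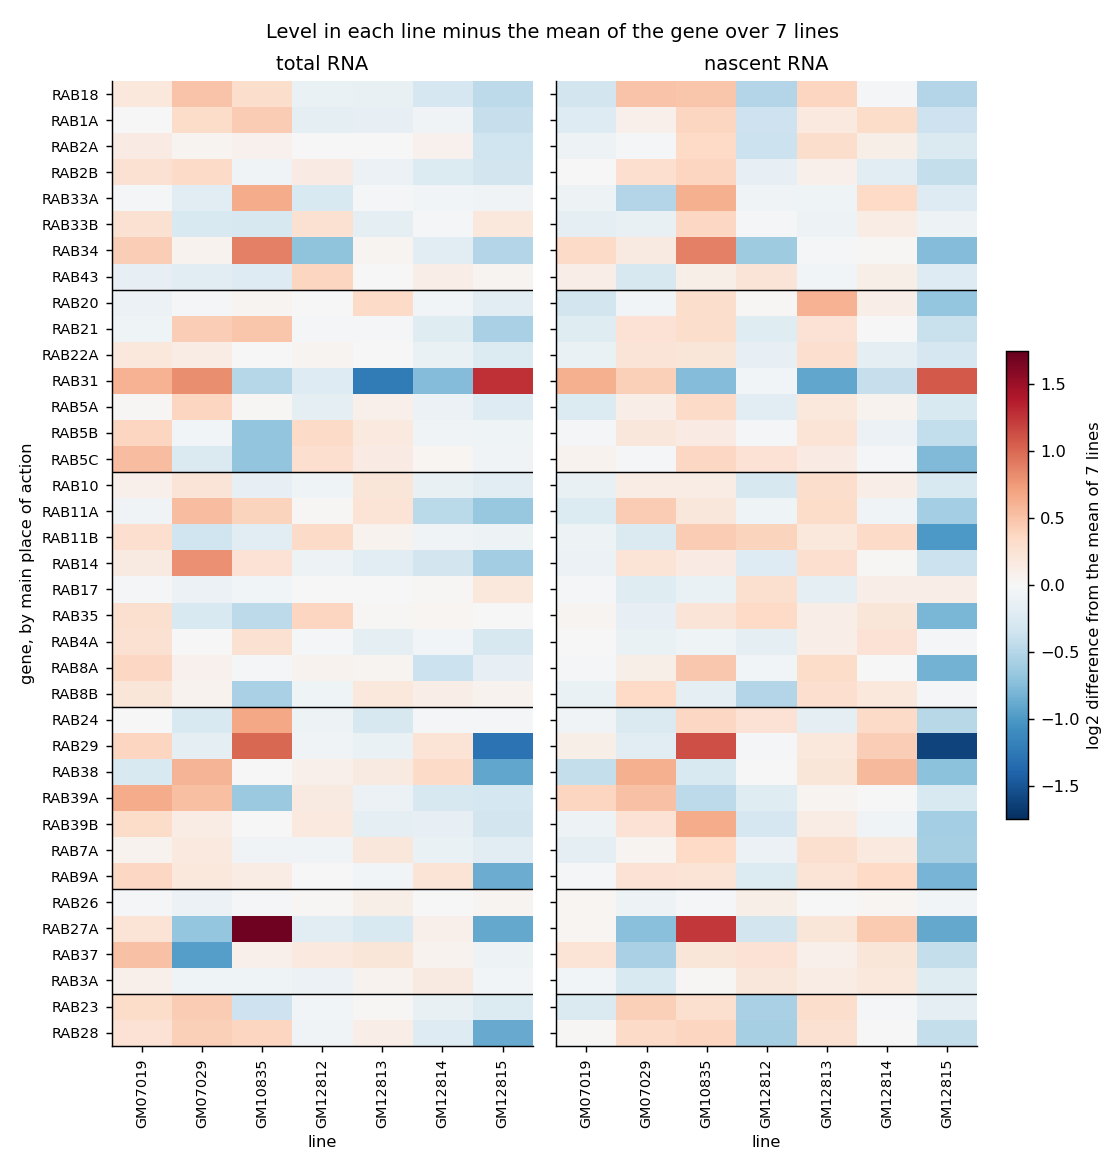
Log2 level of 37 RAB genes in each of 7 lines (columns) minus the mean of the gene over the lines, in total RNA (left) and nascent RNA (right), with genes ordered by place of action and red for higher levels. RAB27A and RAB29 are high in GM10835, RAB31 is high in GM12815 and low in GM12813, and the nascent column of GM12815 is largely blue.

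The 3 lines with 3 cultures each allow a test of differences between lines. These are p-values over independent cultures of 3 lines and so describe those lines. Total RNA differed in 23 of the 37 RAB genes (56.3% of all clusters; limma's moderated F test, adjusted p under 0.05) and nascent RNA in 21 (56.7%). Both differed in 15 (40.7%). Total RNA alone passed in 8 (2201 of the 14167 clusters), nascent RNA alone in 6 (2258), and neither passed in 8 (3937). The family was therefore near the background here as well. By pairs of lines, GM10835 and GM07029 differed in 16 RAB genes in total RNA (47.9% of all clusters) and 24 in nascent RNA (55.3%), GM12813 and GM07029 in 12 (24.5%) and 11 (18.3%), and GM12813 and GM10835 in 16 (37.9%) and 12 (43.4%). The range of line means was wider in total than in nascent RNA for 24 genes and wider in nascent RNA for 13, against 34.1% of all clusters.

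RAB27A had the widest range of both. Its log2 total RNA was 8.16, 8.23 and 8.53 in the cultures of GM07029, 10.62, 10.60 and 10.86 in GM10835, and 8.88, 8.70 and 8.58 in GM12813. Its nascent RNA was 8.42, 8.14 and 8.11, then 10.15, 10.21 and 10.20, then 9.33, 9.04 and 9.13 in the same order. GM10835 was far above the others in both, with no overlap. The highest line mean exceeded the lowest 5.23-fold in total RNA (range 2.39, limma adjusted p = 7.19e-07) and 3.90-fold in nascent RNA (range 1.96, limma adjusted p = 2.4e-07). All 3 pairs of lines differed in both measures, with adjusted p of limma up to 0.0433 in total RNA and 0.000101 in nascent RNA. Over all 7 lines GM10835 also stood highest, followed in total RNA by GM07019 at 9.22.

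RAB31 was second in range. Its total RNA was 8.21, 8.35 and 8.63 in GM07029, 7.11, 7.01 and 7.13 in GM10835, and 6.61, 6.19 and 6.28 in GM12813, where the line mean of 6.36 was not above background. GM07029 was therefore at least 3.98-fold above GM12813 (limma adjusted p = 3.49e-06 over the 3 lines). In nascent RNA GM07029 had 9.55, 9.14 and 9.07, above all cultures of GM10835 (8.08, 8.14 and 8.02) and GM12813 (8.01, 7.88 and 7.88). The nascent range was 1.32 (limma adjusted p = 7.02e-06), and GM10835 and GM12813 did not pass against each other in nascent RNA (limma adjusted p = 0.332) while they did in total RNA (limma adjusted p = 0.00157).

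RAB29 was higher in GM10835 alone among these lines in total RNA, with 10.02, 9.91 and 9.89 against 8.91, 8.51 and 8.89 in GM07029 and 8.92, 8.91 and 8.59 in GM12813 (range 1.17, limma adjusted p = 5.9e-05). Its nascent RNA followed, at 10.13, 10.20 and 10.25 in GM10835 against at most 9.11 in GM07029 and 9.29 in GM12813 (range 1.32, limma adjusted p = 2.71e-06). RAB33A had the same order, with 7.96, 7.76 and 8.11 in total RNA of GM10835 and no more than 7.34 elsewhere (range 0.83), and 9.08, 8.85 and 8.89 in its nascent RNA against at most 7.85 in GM07029 and 8.35 in GM12813 (range 1.13, limma adjusted p = 8.08e-06). RAB24 and RAB34 were also highest in GM10835 in both measures, with ranges of 0.95 and 0.83 in total RNA and 0.62 and 0.90 in nascent RNA.

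RAB37 and RAB39A reached their ranges near background. The total RNA of RAB37 was 5.49, 5.69 and 5.50 in GM07029, all below background, against 6.72, 6.58 and 6.53 in GM10835 and 6.92, 6.64 and 6.66 in GM12813. Its highest line was thus at least 1.26-fold above GM07029 (limma adjusted p = 3.26e-05 on the measured values). RAB39A had 6.32, 6.67 and 6.53 in total RNA of GM07029, and neither GM10835 (5.50, 4.95 and 5.52) nor GM12813 (5.79, 5.99 and 5.85) was above background, so the bound is 1.08-fold (limma adjusted p = 0.000565 on the measured values). Its nascent RNA was above background throughout, at 8.25, 7.80 and 7.98 in GM07029, 7.02, 7.11 and 6.98 in GM10835, and 7.71, 7.56 and 7.39 in GM12813 (range 0.97, limma adjusted p = 0.000167). The 3 lines did not overlap in that measure.

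Other members of the 3 lines went with neither of these orders. RAB38 was highest in GM07029, with line means of 8.80 in total RNA and 9.55 in nascent RNA against 8.20 and 8.67 in GM10835 and 8.35 and 9.14 in GM12813 (ranges 0.60 and 0.88, limma adjusted p = 0.0129 and 3.71e-05). RAB8B was lowest in GM10835 in both, at 10.68 and 10.77 against 11.31 and 11.27 in GM07029 and 11.43 and 11.21 in GM12813 (ranges 0.75 and 0.50, limma adjusted p = 0.000391 and 0.000508). RAB23 was lower in total RNA of GM10835 (6.97) than of GM07029 (7.77; range 0.80, limma adjusted p = 0.00243), while its nascent RNA did not pass (range 0.12) except after quantile normalization (range 0.33). These genes show that low and high lines differed from gene to gene.

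RAB20 was highest in GM12813 and lowest in GM07029 in both measures, with line means of 6.74, 6.83 and 7.11 in total RNA (GM07029, GM10835, GM12813) and of 7.67, 8.03 and 8.33 in nascent RNA (limma adjusted p = 0.0182 and 0.000263). RAB11B had 8.94, 9.09 and 9.34 in total RNA and 9.15, 9.85 and 9.59 in nascent RNA in the same order (limma adjusted p = 0.0158 and 0.000702), so its highest line was not the same in both, although GM10835 and GM12813 did not pass against each other in either (limma adjusted p = 0.073 and 0.0791). RAB2A, RAB33B, RAB39B, RAB3A, RAB43 and RAB8A passed in nascent RNA alone, with ranges of 0.38, 0.50, 0.52, 0.39, 0.39 and 0.36. RAB1A, RAB4A, RAB5B, RAB10, RAB14, RAB18, RAB21 and RAB23 passed in total RNA alone, with ranges from 0.37 for RAB10 to 1.00 for RAB14.

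**Figure D4:**
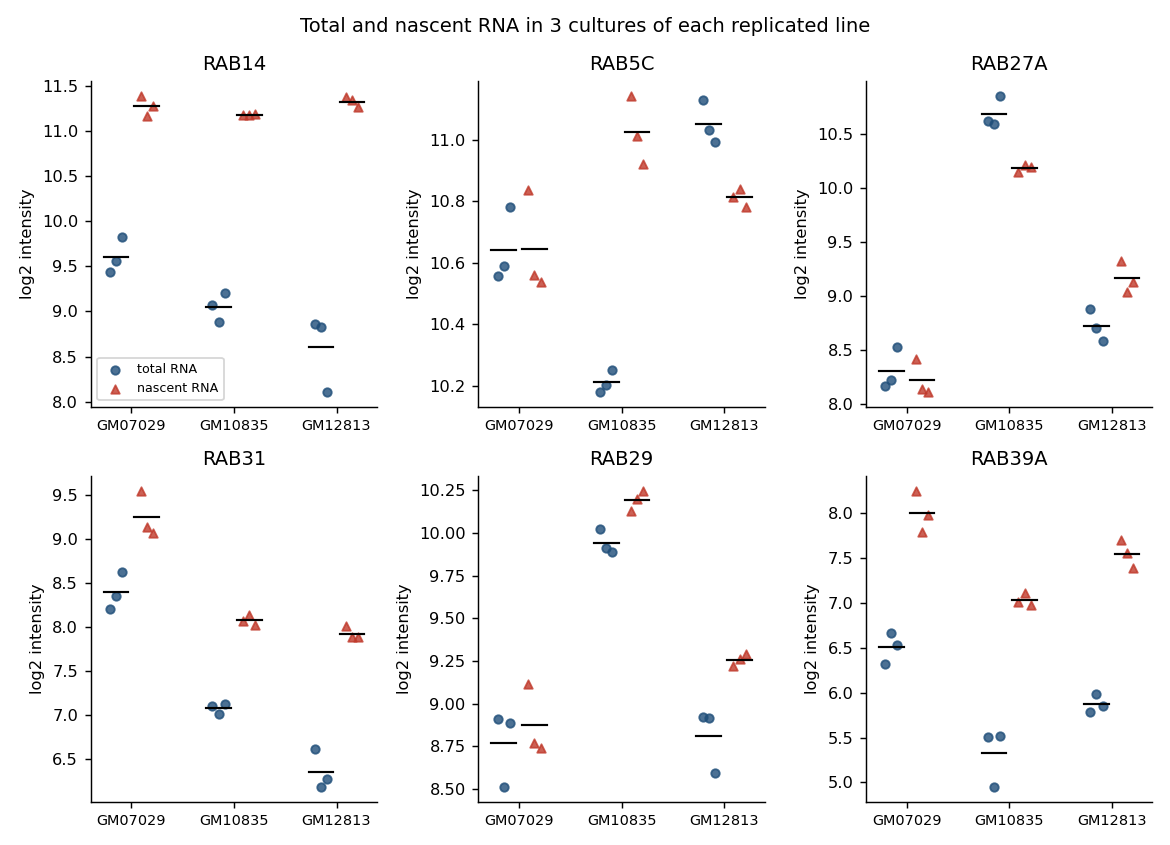
Log2 intensity (vertical axes, scaled for each gene) of 6 RAB genes in total RNA (blue circles) and nascent RNA (red triangles) of 3 cultures each of GM07029, GM10835 and GM12813, with black bars for line means. For RAB14 the nascent values lie between 11.16 and 11.39 in all 3 lines while total RNA steps down from GM07029 to GM12813, whereas RAB27A and RAB29 are highest in GM10835 in both.

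The nascent/total ratio itself differed between the 3 lines for 15 of 37 RAB genes (25.4% of all clusters). Of these 15, the highest line was GM10835 for 8 (10.2% of all clusters were called with GM10835 highest), GM12813 for 6 (11.6%) and GM07029 for 1 (3.59%). By pairs, GM12813 and GM10835 differed in 12 genes (23.1%), GM10835 and GM07029 in 7 (13.9%) and GM12813 and GM07029 in 3 (5.8%). The count of 15 rests on single cultures. It was 8, 7 and 4 without replicate 1, 2 or 3 of GM10835, 9, 8 and 7 without replicate 1, 2 or 3 of GM12813, and 19, 12 and 12 without replicate 1, 2 or 3 of GM07029. Over all clusters the count moved as well, between 1808 and 5065 of 14167. RAB5C, RAB14, RAB27A and RAB4A passed under every alternative tried.

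RAB5C had the widest range. Its ratio was -0.52, -0.80 and -0.96 in GM07029, 0.14, -0.04 and -0.15 in GM10835, and -1.06, -0.97 and -1.09 in GM12813. GM10835 was above both other lines with no overlap (range 1.02, limma adjusted p = 0.0013; GM10835 against GM07029 0.00677 and against GM12813 0.000535), and the other pair did not pass (limma adjusted p = 0.230). Its levels moved in opposite directions, since GM10835 had the lowest total RNA (10.18, 10.20 and 10.25 against 10.56 to 11.13 elsewhere) and the highest nascent RNA (11.14, 11.01 and 10.92 against 10.54 to 10.84). Total RNA differed with a limma adjusted p of 0.000103 and nascent RNA with one of 0.00808.

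RAB14 showed a different arrangement. Its ratio was 1.15, 0.84 and 0.75 in GM07029, 1.28, 1.45 and 1.18 in GM10835, and 1.77, 1.73 and 2.28 in GM12813 (range 1.02, limma adjusted p = 0.00723). GM12813 was above every culture of the other lines, and GM07029 and GM10835 did not pass against each other (limma adjusted p = 0.164). Total RNA ran the other way, with 9.44, 9.56 and 9.82 in GM07029, 9.08, 8.88 and 9.20 in GM10835 and 8.86, 8.83 and 8.11 in GM12813 (range 1.00, limma adjusted p = 0.0037). Nascent RNA did not pass (11.39, 11.16 and 11.28, then 11.17, 11.18 and 11.20, then 11.38, 11.34 and 11.26; range 0.15, limma adjusted p = 0.169), though it did after quantile normalization (range 0.27, limma adjusted p = 0.00154). Culture 3 of GM12813 was apart from the other 2 in total RNA, and without it the range of the ratio was 0.84 and still passed.

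RAB27A differed in the ratio as well as in both levels. Its ratio was -0.54, -0.86 and -1.14 in GM07029, -1.29, -1.24 and -1.48 in GM10835, and -0.30, -0.45 and -0.33 in GM12813 (range 0.98, limma adjusted p = 0.0035). Only GM10835 against GM12813 passed among the pairs (limma adjusted p = 0.00127), with GM07029 between them. RAB4A had -0.17, 0.08 and -0.36 in GM07029, -0.45, -0.46 and -0.45 in GM10835, and 0.18, 0.26 and 0.18 in GM12813 (range 0.66, limma adjusted p = 0.00821). Again GM10835 and GM12813 were the pair that passed (limma adjusted p = 0.00324), and the cultures of GM07029 lay between them.

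RAB5B had -0.69, -1.17 and -1.30 in GM07029, -0.74, -0.42 and -0.45 in GM10835, and -1.37, -1.21 and -1.23 in GM12813 (range 0.73, limma adjusted p = 0.0183). Like RAB5C it was highest in GM10835, where its total RNA was lowest (9.48, 9.17 and 9.11), and its nascent RNA did not pass (range 0.09), though it did after quantile normalization (range 0.26). The call is lost without replicate 2 or 3 of GM10835 (limma adjusted p = 0.0676 and 0.0754). RAB31 had 0.54, 0.01 and -0.28 in GM07029, 0.15, 0.28 and 0.07 in GM10835, and 0.65, 0.92 and 0.73 in GM12813 (range 0.68, limma adjusted p = 0.0331). Its call was lost without any single culture other than replicate 1 or 3 of GM07029 (limma adjusted p of 0.0512 to 0.126), and total RNA in GM12813 was not above background.

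The other 9 genes past the threshold had ranges of 0.45 to 0.61. RAB23, RAB33B, RAB35, RAB39B, RAB5A and RAB7A had their highest ratio in GM10835, RAB1A and RAB24 in GM12813, and RAB37 in GM07029. Neither measure of RAB37 was above background in GM07029, so its order is not determined, and with total RNA set at background the ratio was -0.95 there against -0.43 in GM10835 and -0.66 in GM12813. All 9 lost the call under at least 1 omission of a culture. Taking the 3 genes of the RAB5 family, each had its highest ratio in GM10835. RAB5A had 0.97 there, 0.46 in GM07029 and 0.77 in GM12813 (limma adjusted p = 0.0481), and its total RNA did not pass (range 0.36, limma adjusted p = 0.0898).

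Some RAB genes did not pass in either level. RAB9A had nascent RNA of 11.33 in each line (range 0.01, limma adjusted p = 0.996) and total RNA of 9.85, 9.79 and 9.62 (limma adjusted p = 0.30). Neither total nor nascent RNA passed for RAB11A, RAB17, RAB22A, RAB26, RAB28, RAB5A, RAB7A and RAB9A. A missed threshold does not show equal levels, and after quantile normalization total RNA passed for RAB5A (range 0.44), RAB7A (0.50) and RAB11A (0.33), and nascent RNA for RAB11A (0.42) and RAB22A (0.24).

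**Figure D5:**
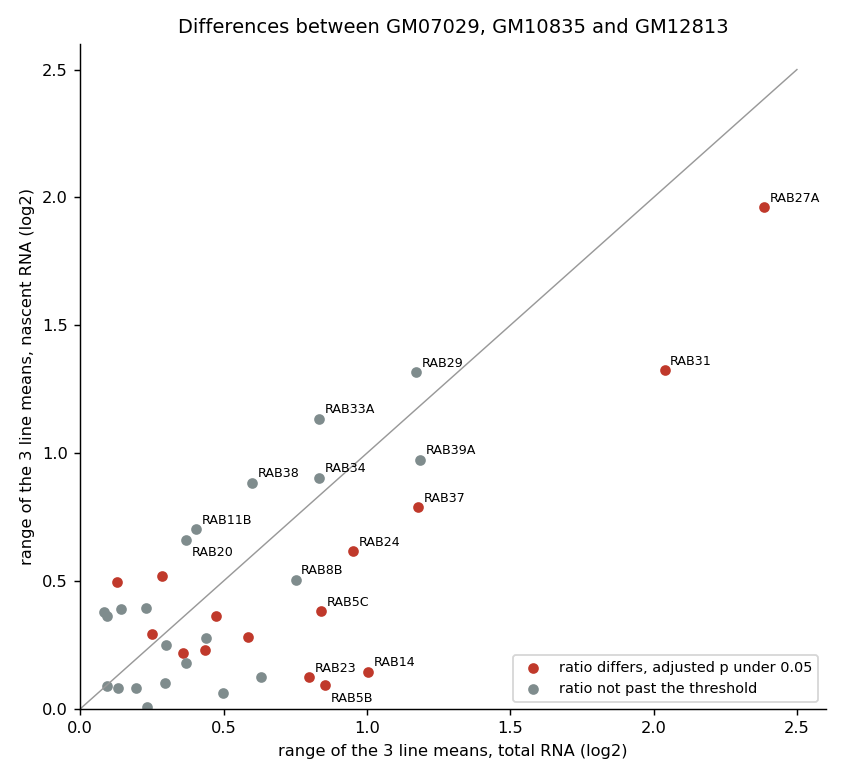
Range of the 3 line means of GM07029, GM10835 and GM12813 in total RNA (horizontal axis, log2) and nascent RNA (vertical axis, log2) for 37 RAB genes, with equality as a diagonal and genes whose ratio passed in red. RAB27A (2.39 and 1.96) and RAB31 (2.04 and 1.32) lie farthest out, and RAB14 (1.00 and 0.15) and RAB5B (0.85 and 0.09) lie well under the diagonal.

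The regulators and effectors of RAB proteins were read from lists of their genes. Of 7 genes for membrane handling and prenylation above background, 1 was higher in the ratio over 7 lines, 2 lower and 4 did not pass, with a median of -0.08, where 31.7% of all clusters were higher and 31.7% lower. CHML, a Rab escort protein that presents new RABs for prenylation, was higher (0.61 ± 0.43, 6 of 7 lines), and RABGGTA, the alpha subunit of the RAB geranylgeranyl transferase, was lower (-0.64 ± 0.25, 7 of 7 lines). ZMPSTE24, a protease that processes prenylated proteins, was lower at -0.31 ± 0.24. Of 20 exchange factors, 3 were higher and 4 lower, against 31.7% of all clusters in each direction, and 13 did not pass, with a median of -0.06. DENND3, an exchange factor for RAB12, and RIN3, one for RAB5 proteins, were the highest at 0.75 ± 0.20 and 0.50 ± 0.29, and DENND4C, one for RAB10, and DENND5A were the lowest at -0.89 ± 0.42 and -0.46 ± 0.17.

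Of 25 GTPase-activating proteins, 15 were lower relative to the median cluster, 6 higher and 4 did not pass, for a median of -0.26, against 31.7% of all clusters in each direction. TBC1D20, which acts on RAB1 and RAB18, had 1.81 ± 0.16 and RABGAP1 0.73 ± 0.26, both higher in 7 of 7 lines. TBC1D5, which acts on RAB7, had -1.43 ± 0.32 and TBC1D1, which acts on RAB8A and RAB10, -1.07 ± 0.18, both lower in 7 of 7 lines. Of 37 effectors, 16 were higher and 6 lower, against 31.7% of all clusters in each direction. The other 15 did not pass, and the median was 0.04. BICD2, a dynein adaptor that binds RAB6, had 2.25 ± 0.31 and GOLGA2, a Golgi tether that binds RAB1, 1.42 ± 0.29, while APPL1, an effector of RAB5, had -0.88 ± 0.27 and PLIN3, a binding partner of RAB9, -0.84 ± 0.33. The values are means ± SD over 7 lines, and all named partners passed limma's test.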

How the data were processed

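Total and 4sU-labelled nascent RNA of 13 cultures of 7 lines were measured on 32 exon arrays. The authors deposited log2 intensities per transcript cluster, made with Affymetrix Power Tools on build hg18 per the submitters' processing notes. How probes were summarised, and whether the arrays of both RNA kinds were scaled jointly, is not given in the sources used here.

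Symbols came from the platform's annotation, checked in a RefSeq gene table for 14377 of 14405 clusters. Technical duplicates were averaged first. Clusters whose mean over all arrays exceeded 6.40 were tested (14167). The ratio was nascent minus total log2 value of a culture, centred on its median tested cluster, which pairs both RNAs of a culture, as the series design states that they came from the same culture. Over lines, the mean of each line (n = 7) was tested against 0, and between 3 lines 9 cultures were compared by the moderated F test and its pairwise contrasts, both two-sided with limma 3.58.1 in R 4.3.3 (trended eBayes, Benjamini-Hochberg over all clusters tested, threshold 0.05). A fold at or under background is a bound against 6.40. The tests were checked on simulated data.

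The members and lists were chosen with earlier results of these data known. Given in full were the 8 highest and 8 lowest mean ratios, the 5 widest ranges between 3 lines past the threshold in each measure, and paralogue families; of each partner list, the 2 highest and 2 lowest ratios past the threshold. Alternatives were no centring, no or a stricter filter, quantile normalization, removal of the signal trend, single arrays of GM12813, no trend in limma, an ordinary F test, unpaired or blocked fits, cultures with the line as a random block, any cluster with a matching symbol, and omission of each culture or line. Same-numbered cultures of different lines did not deviate together (r from -0.43 to 0.20 in the ratio, 2 of 9 above 0.1), so the number is not taken to pair them. Protein and promoter sequences were not used here.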

Additional observations from a re-analysis of the deposited data

Results flagged for a closer look

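In 11 of 111 sets of 7 line values (37 RAB genes in total RNA, nascent RNA and ratio), 1 line stood apart from the others by a gap that is large against the whole range (Dixon's 95% limit). Chance flags about 1 in 20 independent groups, but these sets share arrays and the ratio is made from total and nascent RNA. The share of flagged sets over all clusters is not given here, so 11 is not read as an excess. Over all clusters, 45.1% had their lowest nascent RNA in GM12815. GM12815 was the line apart in 6 sets, GM10835 in 4 and GM07029 in 1. GM12815 was low in total RNA of RAB2A (9.65) and RAB9A (8.79) and in nascent RNA of RAB35 (9.67), RAB5C (9.90) and RAB8A (9.64), and high in total RNA of RAB17 (7.23). GM10835 was high in total RNA of RAB24 (8.61) and RAB33A (7.94) and low in that of RAB5B (9.25) and RAB8B (10.68). GM07029 was low in total RNA of RAB37, at 5.56, which is below background. The nearest other line had 9.99 for RAB2A, 9.62 for RAB9A, 10.33 for RAB35, 10.64 for RAB5C, 10.42 for RAB8A, 7.06 for RAB17, 7.94 for RAB24, 7.26 for RAB33A, 9.86 for RAB5B, 11.16 for RAB8B and 6.44 for RAB37. All values are log2 intensities, and GM12815 had 1 culture, so that its spread is not known.

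The nascent/total ratio of 15 RAB genes differed between GM07029, GM10835 and GM12813 by the moderated F test of limma. The ranges of line means were 1.02 for RAB5C, 1.02 for RAB14, 0.98 for RAB27A, 0.73 for RAB5B, 0.68 for RAB31, 0.66 for RAB4A, 0.61 for RAB23, 0.55 for RAB37, 0.55 for RAB35, 0.55 for RAB33B, 0.51 for RAB5A, 0.50 for RAB1A, 0.46 for RAB39B, 0.46 for RAB7A and 0.45 for RAB24. RAB5C, RAB14, RAB27A and RAB4A passed in every alternative.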

How the results depend on the processing

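Without centring, 28 RAB genes were higher and 3 lower over 7 lines (11639 and 762 of all clusters), and the means of RAB10 (0.14), RAB11A (0.47), RAB11B (0.12), RAB29 (0.14), RAB2B (0.073), RAB35 (0.38), RAB37 (0.27), RAB3A (0.39) and RAB8A (0.39) turned positive. Nascent and total RNA taken as unpaired, with no replicate block for the culture, gave 5 higher and 9 lower. The count over all clusters is not given here for that setting. For the ratio between 3 lines, the count of 15 became 6 without a filter (2012 of all clusters), 8 with the first array of each GM12813 culture (2142) and 6 with an ordinary F test (2279). With the culture number as replicate block it was 10 (2458 of all clusters), with 20 in total RNA and 21 in nascent RNA. For total and nascent RNA in that setting the counts over all clusters are not given here. They are therefore not read as particular to RAB genes. Omitting 1 culture gave 4 to 19 (1808 to 5065 of all clusters) for the ratio, 20 to 24 (6589 to 8029) for total RNA and 19 to 27 (7094 to 9163) for nascent RNA. Omitting 1 line gave 9 to 11 higher (4187 to 4496 of all clusters) and 14 to 15 lower (4127 to 4471) over the remaining lines. Quantile normalization gave 17 for the ratio (4050 of all clusters), 29 for total RNA (8878) and 27 for nascent RNA (8094). The cause of these shifts was not tested. Calls were kept in every alternative that tested the gene by 8 of 24 RAB genes for the ratio over 7 lines (RAB14, RAB21, RAB39A, RAB5A, RAB5B, RAB7A, RAB8B and RAB9A). The same held for 4 of 15 for the ratio between lines, 15 of 23 for total RNA and 18 of 21 for nascent RNA. The share of all clusters that kept their call is not given here. These counts are therefore not read as a trait of RAB genes. RAB39A is counted for the ratio over 7 lines and for both levels. The stricter filter, which asks for means of both RNAs above background, left RAB39A untested because its mean total RNA was below background. Signal over background limits RAB39A, RAB28, RAB37, RAB34 and RAB31, each under background in total RNA of 1 or more lines. Half-lives in hours were not computed.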

Other observations

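Other small GTPases were set beside the RAB genes as a description. Of 10 ARF family genes above background, which recruit vesicle coats, 2 had a higher nascent/total ratio over 7 lines, 6 a lower one and 2 did not pass, with a median of -0.33. Of 12 RAS family genes 3 were higher, 5 lower and 4 did not pass, with a median of -0.11. The RAB median was -0.04, and 31.7% of all clusters were higher and 31.7% lower. Differences between these families were not tested.

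The RAB ratio was lowest in GM12812 for 14 of 37 genes (23.3% of all clusters) and highest in GM10835 for 13 (24.6%). For 6 genes GM10835 had the lowest ratio instead (RAB4A, RAB11A, RAB21, RAB24, RAB27A and RAB38), against 22.6% of all clusters. Of these RAB4A, RAB21, RAB24 and RAB27A also had their highest total RNA there, although RAB4A had 7.65 in both GM10835 and GM07019. Total RNA is subtracted in the ratio, so these orders are not independent. The share of all clusters with the same coincidence is not given here.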
